A study of Mus musculus with 6 samples.

Results

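The clustered histone genes, named Hist1h, Hist2h, Hist3h and Hist4h in the older mouse nomenclature, are the genes that supply most of the histone protein for newly copied DNA. All gene symbols in the count tables that begin with Hist, a cluster number from 1 to 4 and the letter h were taken, which gave 68 of 24421 genes. Among them, Hist3h2bb-ps is annotated as a processed pseudogene and is counted here with the H2B genes. They were measured by RNA sequencing of total RNA from liver of 7 month old mice of the Townes line, in 3 SS and 3 AS libraries. SS mice have the strain label Hbatm1(HBA)Tow, Hbbtm2(HBG1,HBB*)Tow, so human alpha-globin replaces the mouse alpha genes, and human gamma-globin with sickle beta-globin replaces the mouse beta genes. AS mice share the human alpha-globin and 1 such sickle allele, and have a second allele, Hbbtm3(HBG1,HBB)Tow, with normal human beta-globin. The labels give no sex, litter or batch and do not say that libraries of a genotype came from separate animals, so each p-value rests on the spread among these libraries alone, which may be technical. The series title concerns bile secretion and liver injury in sickle cell disease, and no question about histones is stated.

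Clustered histone genes are switched on when a cell enters S phase and supply the core histones H2A, H2B, H3 and H4, which form the nucleosome, and the linker histone H1, which binds the DNA between nucleosomes. Their mRNAs are unusual in ending not in a poly(A) tail but in a short stem-loop, bound by the stem-loop binding protein SLBP, and most have no introns. Some of these genes also give longer, polyadenylated transcripts in cells that have stopped dividing. In adult liver, hepatocytes divide rarely, whereas red cell precursors, immune cells and injured liver contain dividing cells.

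SS replicates 1, 2 and 3 held 6971289, 13700194 and 10589220 gene reads, and AS replicates 1, 2 and 3 held 10424592, 6670011 and 12658869. AS replicates 2 and 3 resembled each other most: their counts differed by a chi-square of 3.98 per gene, above sampling noise, where the other pairs within a genotype gave 32.8 to 131. Of 10 hepatocyte markers, 9 (Alb and Apoa1 among them) passed the filter on low counts, and Ass1 was near 0 in all 6 libraries. In bulk liver, fewer cells of a type and less RNA per cell cannot be told apart. How RNA was selected for sequencing, by poly(A) or by removal of ribosomal RNA, is not given in the sources used here. Of alignment records, 14.7% to 16.2% in SS libraries and 18.4% to 22.8% in AS libraries had no unique position and were not counted for any gene. That difference touches gene families of near copies such as these, and its part in the results below was not tested.

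The stem-loop that marks a replication-dependent histone mRNA was found in 46 of the 68 genes (67.6%), against 0.101% of all 55341 symbols of the GENCODE M21 annotation. The search took only the known histone form, a 16-base run. Its 6-base stem had to read GGYYYT, where Y is C or T, and to pair with the 3′ stem. Its 4-base loop had to read TYTN, where N is any base. Stems and loops of other letters were not searched, in the 68 genes or in all symbols. The examples below show it with up to 5 flanking bases, on the transcript strand, from GENCODE M21 (GRCm38, the build also called mm10), and the capitals mark the stem. They were chosen to show the stem of each histone class and of the genes with the highest levels that have one.
Hist1h1c: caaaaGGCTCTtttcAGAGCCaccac
Hist2h2ac: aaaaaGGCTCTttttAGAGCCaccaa
Hist1h2bg: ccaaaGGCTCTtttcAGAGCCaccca
Hist1h3c: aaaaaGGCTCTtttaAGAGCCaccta
Hist1h4i: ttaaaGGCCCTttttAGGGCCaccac
Hist1h4h: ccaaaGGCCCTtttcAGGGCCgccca
Hist1h4b: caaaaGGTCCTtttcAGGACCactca
The stem GGCTCT stood in all 34 H1, H2A, H2B and H3 genes with a stem-loop and in 0 of the 12 H4 genes with one, whose stems read GGCCCT or, as in Hist1h4b, GGTCCT. The annotated transcript ended within 25 bases of the stem-loop in 6 genes and ran further in 40. In the remaining 22 no such run was found in the gene model, and 13 of the 68 models held little or nothing after the coding sequence.

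Most clustered histone genes were near the limit of detection. Of the 68 genes, 17 had 0 counts in all 6 libraries, 51 were detected in at least 1 library, 12 in all 6, and 10 passed the filter on low counts. A count of 0 allows up to 3 counts, or 0.217 to 0.394 CPM in SS and 0.245 to 0.483 CPM in AS libraries, where CPM is the count of a gene scaled to a common library size. The 10 tested genes were Hist1h1c, Hist1h2bc, Hist1h2be, Hist1h2bg, Hist1h4h, Hist1h4i, Hist1h4k, Hist2h2ac, Hist2h2be and Hist3h2a. No H3 gene was among them. The germ-line variants were detected in few reads or in none. Hist1h2aa, an H2A gene of the testis, had 0 counts throughout. Hist1h2ba, its H2B neighbour, had 0, 5 and 0 counts in SS replicates 1, 2 and 3, against 0 in each AS library. Hist1h1t, the testis linker histone, had 0, 6 and 0 counts in the SS libraries, against 0, 1 and 0 in the AS libraries.

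Shared sequence limits what these counts can hold. For each gene, the share of 50-base windows of its transcripts that also occur, on either strand, in a transcript of another gene was computed. Its median was 88.7% in the 17 genes at 0 and 43.8% in the 51 detected genes. These values are a description over genes that share sequence with one another, and the windows include overlapping gene models as well as copies. Hist2h2aa1 and Hist2h2aa2, an H2A pair on chromosome 3, had 100% of their windows shared and 0 counts. Hist2h3b and Hist2h2bb, also at 100%, were detected with few reads, so the overlapping models in GENCODE need not be those the authors counted with. Among the tested genes the median was 31.1%. Hist1h1c and Hist1h2bc had 8.5% and 30.6% of windows shared, against 45.8% in Hist1h4h, 49.7% in Hist1h2bg, 55.0% in Hist2h2ac and 71.5% in Hist1h4k. The H3 genes named below for their counts had 87.6% (Hist1h3i), 73.4% (Hist1h3e) and 47.0% (Hist1h3c). The H4 genes under the filter named below had 85.6% (Hist1h4n), 75.9% (Hist1h4b) and 24.6% (Hist1h4j). Reads of genes with large shares are uncertain.

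**Figure D1:**
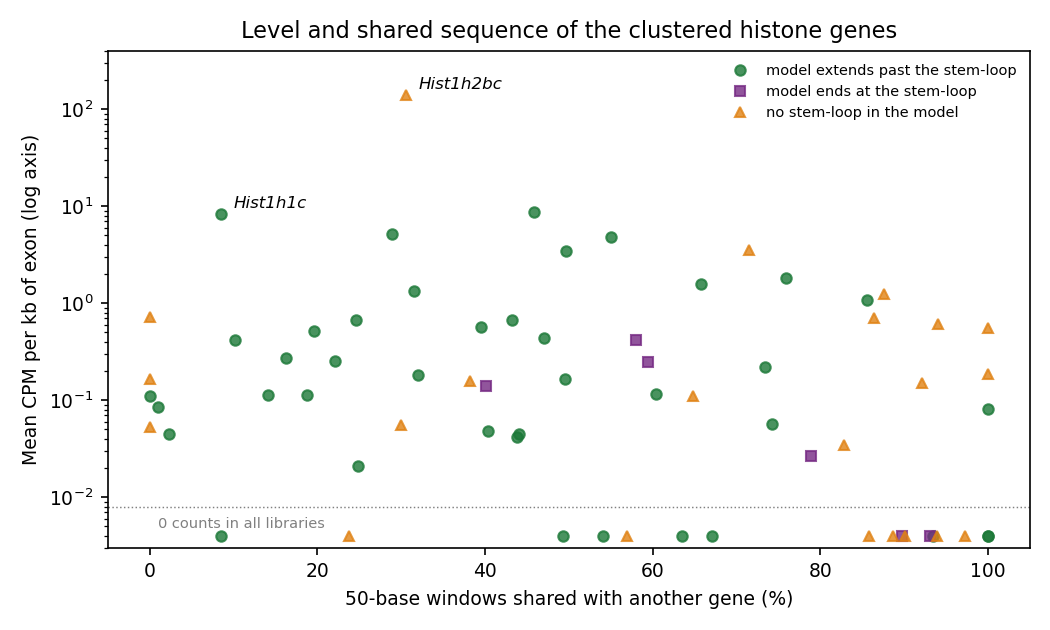
Mean level of the 68 clustered histone genes over the 6 libraries, in CPM per kb of annotated exon (log axis), against the percentage of 50-base windows shared with another gene; each point is 1 gene and its colour gives the position of the stem-loop in the annotated model. The 17 genes at 0 counts lie under the dotted line, mostly to the right, and Hist1h2bc stands far above all others.

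A single H2B gene supplied most of the reads. Hist1h2bc (chromosome 13, 23684199 to 23692908, GRCm38, plus strand) has a spliced model of 2 exons in which no stem-loop was found. It held 80.6%, 73.0% and 61.9% of the clustered histone reads in SS replicates 1, 2 and 3, against 83.6%, 86.4% and 84.1% in AS replicates 1, 2 and 3 (Wilson 95% intervals at most 4.86 percentage points wide, for counting error). The share was lower in every SS library than in every AS library. The intervals of SS replicate 1 (78.3% to 82.7%) and AS replicate 1 (82.1% to 85%) overlapped, however. Its level was 137, 160 and 73.9 CPM in SS replicates 1, 2 and 3, against 251, 173 and 167 CPM in AS replicates 1, 2 and 3. Here and below, the values of a genotype stand in the order of its replicates. SS replicate 3 was lowest and AS replicate 1 highest, and the groups did not overlap. The means were 124 ± 44.6 CPM in SS and 197 ± 46.7 CPM in AS liver (SD, n = 3 each), and the log2 change of -0.67 did not pass the test (SE 0.325, 95% interval -1.39 to 0.05, edgeR adjusted p = 0.425). Scaled to library totals alone, SS replicate 2 had 162 CPM against 161 CPM in AS replicates 2 and 3, so the groups then overlapped. The log2 change was -0.41 without SS replicate 3, and -0.19 without SS replicate 3 and AS replicate 1.

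Hist1h2bc lies head to head with the H2A gene Hist1h2ac, which runs the other way from a start 250 bases off, and the pair differed widely in level. Hist1h2bc had 9503 reads over the 6 libraries and Hist1h2ac had 22. Per kb of annotated exon, the mean over all libraries was 139 CPM for Hist1h2bc and 0.113 CPM for Hist1h2ac. Hist1h2ac had 0, 8 and 12 counts in the SS libraries, against 0, 0 and 2 in the AS libraries. The DNA between them is shown because it lies upstream of both genes. It is the window from 250 bases before to 50 after the Hist1h2ac start (RefSeq, GRCm38.p6, chr13:23683910-23684209, minus strand, 5′ to 3′ along Hist1h2ac). Capitals mark the CCAAT box, the TATA box (TATAAA) and the octamer (ATTTGCAT), on either strand.
Hist1h2ac: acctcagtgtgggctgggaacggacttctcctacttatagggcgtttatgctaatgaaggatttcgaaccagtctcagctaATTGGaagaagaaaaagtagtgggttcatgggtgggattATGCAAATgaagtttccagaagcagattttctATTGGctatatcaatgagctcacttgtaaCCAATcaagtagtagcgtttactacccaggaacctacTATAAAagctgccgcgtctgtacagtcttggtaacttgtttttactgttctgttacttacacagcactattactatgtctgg
Hist2h2ac and Hist2h2be, an H2A and an H2B gene on chromosome 3, face each other across 238 bases, and with 142 and 121 reads over the 6 libraries they were much closer in number. The upstream window of Hist2h2ac (chr3:96220831-96221130, minus strand) is shown for comparison, marked in the same way.
Hist2h2ac: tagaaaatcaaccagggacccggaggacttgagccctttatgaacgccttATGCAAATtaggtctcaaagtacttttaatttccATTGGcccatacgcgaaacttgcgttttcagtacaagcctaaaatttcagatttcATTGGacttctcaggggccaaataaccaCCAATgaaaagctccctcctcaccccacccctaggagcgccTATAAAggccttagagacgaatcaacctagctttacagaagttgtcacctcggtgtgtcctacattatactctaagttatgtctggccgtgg
Upstream windows of the same length matched 61 of the 68 genes. The CCAAT letters, on either strand, stood in 85.2% of them, against 41.1% of the windows of all 27025 genes, and TATAAA stood in 57.4%, against 15.7%. The octamer ATTTGCAT stood in 23.0%, against 1.97% of all genes, and all 14 genes that held it were H2A or H2B genes, 7 of each. CCAAT stood in 3 of 12 H4 windows and in each of the 49 others. Head-to-head genes share these letters, of which 13 pairs were annotated with 172 to 305 bases between their starts, so genes are not independent here. None of the 3 motifs contains another. A match describes letters and does not show binding.

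None of the 10 tested genes was called at an adjusted p under 0.05, where 0.967% of all 12622 tested genes were called (0.911% with SS higher, 0.0555% with SS lower). None had an unadjusted p under 0.05 by edgeR either, against 12.7% of all tested genes. By DESeq2, 0 were called and 1, Hist1h2bc, had an unadjusted p under 0.05, where 1779 of all 12622 genes had one. Fitted values were higher in SS for 5 genes and lower for 5, with a median log2 change of -0.06, beside 0.08 over all genes tested. The groups did not overlap in 3 of the 10 genes, all lower in SS, where 21.2% of all tested genes did not overlap in either direction and 9.15% did so with SS lower. Those 3 were Hist1h2bc, Hist1h2bg and Hist2h2ac, and with library totals alone each of them overlapped. For each of the 10 genes, the 95% interval reached past a 2-fold change in at least 1 direction.

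**Figure D2:**
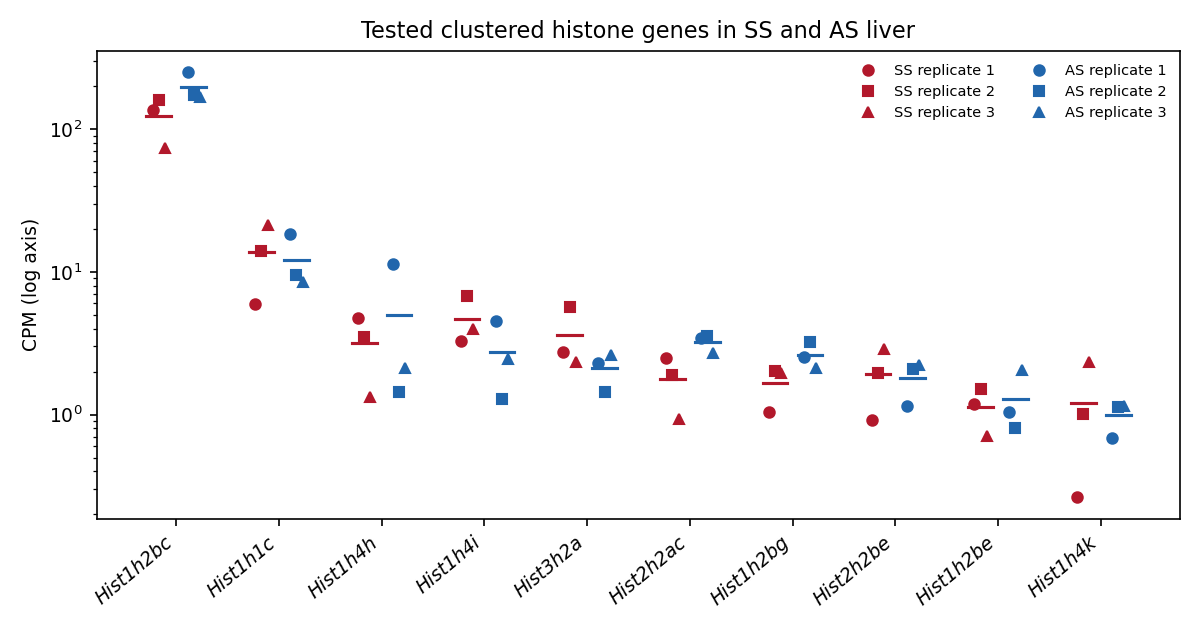
CPM (log axis) of the 10 tested clustered histone genes, ordered by level, in SS libraries (red, left of each pair) and AS libraries (blue, right); marker shapes give the replicate number and bars the means of 3 libraries. The groups are separate, with SS lower, for Hist1h2bc, Hist2h2ac and Hist1h2bg, and overlap for the other 7.

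Among linker histones, Hist1h1c, which encodes H1.2, was the gene with the most reads. Its level was 5.91, 14.0 and 21.4 CPM in the SS libraries, against 18.3, 9.50 and 8.50 CPM in the AS libraries. The SS libraries held both the lowest and the highest value, and the groups overlapped (log2 change 0.20, SE 0.468, 95% interval -0.84 to 1.24, edgeR adjusted p = 0.879). The value changed sign without SS replicate 3 (-0.26) or AS replicate 3 (-0.013). The other H1 genes were nearly silent: those without enough counts to test, Hist1h1a, Hist1h1b, Hist1h1d, Hist1h1e and Hist1h1t, summed to 2, 50 and 10 counts in the SS libraries, against 0, 2 and 8 in the AS libraries. SS replicate 2 held most of them. The upstream window of Hist1h1c (chr13:23738557-23738856, plus strand) is shown because this gene was second in CPM among the 68, and the capitals mark its single CCAAT.
Hist1h1c: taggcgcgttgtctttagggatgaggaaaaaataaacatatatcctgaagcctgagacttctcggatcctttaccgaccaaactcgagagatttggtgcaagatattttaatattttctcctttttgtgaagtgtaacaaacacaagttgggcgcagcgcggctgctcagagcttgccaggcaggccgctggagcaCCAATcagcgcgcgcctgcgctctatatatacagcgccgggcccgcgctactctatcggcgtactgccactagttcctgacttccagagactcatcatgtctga

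The tested H2A genes were Hist2h2ac and Hist3h2a, on different chromosomes. Hist2h2ac had 2.49, 1.88 and 0.937 CPM in the SS libraries, against 3.45, 3.54 and 2.70 CPM in the AS libraries. Every SS value lay below every AS value (log2 change -0.87, SE 0.565, 95% interval -2.12 to 0.38, edgeR adjusted p = 0.538). Hist3h2a (chromosome 11) had 2.76, 5.65 and 2.34 CPM in the SS libraries, against 2.30, 1.45 and 2.61 CPM in the AS libraries. SS replicate 2 was highest, and SS replicate 3 lay inside the AS range (log2 change 0.75, SE 0.556, edgeR adjusted p = 0.592), although with library totals alone all SS values lay above all AS values. Without SS replicate 2 the log2 change was 0.24. Its model shares 31.5% of its windows with Trim17, and that of Hist2h2ac shares 55.0% with other genes, so the reads of both are uncertain. Of the 18 H2A genes, 9 had 0 counts, the most of any class.

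Besides Hist1h2bc, the tested H2B genes were Hist1h2bg, Hist1h2be and Hist2h2be. Hist1h2bg had 1.05, 2.03 and 1.95 CPM in the SS libraries, against 2.53, 3.22 and 2.12 CPM in the AS libraries, with no overlap and a narrow gap between SS replicate 2 and AS replicate 3 (log2 change -0.61, SE 0.562, edgeR adjusted p = 0.669). Hist2h2be had 0.919, 1.95 and 2.89 CPM in the SS libraries, against 1.15, 2.09 and 2.21 CPM in the AS libraries (log2 change 0.10, SE 0.635). It was one of 4 genes with no window shared, so its count is the least ambiguous of the tested H2B genes, and the groups overlapped fully. Hist1h2be averaged 1.13 ± 0.411 CPM in SS and 1.29 ± 0.658 CPM in AS liver (SD, n = 3 each), and its long model shares 16.3% of its windows, chiefly with Hist1h1e. Summed without Hist1h2bc, the 18 other H2B genes gave 3.94, 9.34 and 6.79 CPM in the SS libraries, against 7.02, 6.92 and 8.91 CPM in the AS libraries, which overlapped.

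H3 genes, all of them under the filter, showed the largest ratio between genotypes of the 5 classes in their summed level. The 12 genes summed to 18, 49 and 22 counts in the SS libraries, against 3, 2 and 1 counts in the AS libraries. As CPM this was 2.36, 3.55 and 1.72 in the SS libraries, against 0.345, 0.322 and 0.0817 in the AS libraries. All SS values lay above all AS values, and the ratio of the means was 10.2, or 8.18 without SS replicate 2. The other classes include tested genes. For their genes under the filter alone, the ratios were 4.78 for H1, 3.26 for H2A, 1.04 for H2B and 4.36 for H4. Without SS replicate 2 they were 1.6, 3.18, 0.542 and 3.11. These sums did not overlap between groups for H2A and H4, and overlapped for H1 and H2B. For H2A they were 2.36, 2.1 and 1.56 CPM in the SS libraries, against 0.46, 0 and 1.39 CPM in the AS libraries. Over all 6074 detected genes under the filter, 76.9% were higher in SS, and no ratio of their sum is given. Hist1h3i had 10, 20 and 4 counts in SS replicates 1, 2 and 3, Hist1h3c had 0, 12 and 10, and Hist1h3e had 1, 7 and 6, and each had 0 in every AS library. These 3 genes were named after their values were seen, and no test is given for the sum. Markers of dividing and blood-forming cells were also higher in SS, and their part in the H3, low H2A and low H4 values was not tested. The mitosis genes summed to 150 to 252 CPM in SS and 20 to 30.8 CPM in AS libraries, the erythroid markers to 233 to 452 CPM in SS and 35.7 to 44.8 CPM in AS libraries, and the neutrophil markers to 27.2 to 115 CPM in SS and 3.59 to 8.86 CPM in AS libraries. Reads without molecular identifiers can include copies of the same fragment, and counts this low can rest on few molecules.

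H4 genes split by level. Hist1h4h had 4.73, 3.48 and 1.33 CPM in the SS libraries, against 11.3, 1.45 and 2.12 CPM in the AS libraries. AS replicate 1 alone set the AS mean above the SS mean, and the log2 change of -0.65 (SE 0.768, edgeR adjusted p = 0.745) was 0.79 without it. Hist1h4i had 3.28, 6.81 and 3.98 CPM in the SS libraries, against 4.49, 1.29 and 2.45 CPM in the AS libraries, so the groups overlapped through AS replicate 1 (log2 change 0.77, SE 0.555, 95% interval -0.46 to 2.00, edgeR adjusted p = 0.582). Hist1h4k averaged 1.21 ± 1.05 CPM in SS and 0.987 ± 0.257 CPM in AS liver (SD, n = 3 each). The upstream window of Hist1h4i (chr13:22041313-22041612, minus strand) is shown as an H4 window without CCAAT, with TATAAA in capitals.
Hist1h4i: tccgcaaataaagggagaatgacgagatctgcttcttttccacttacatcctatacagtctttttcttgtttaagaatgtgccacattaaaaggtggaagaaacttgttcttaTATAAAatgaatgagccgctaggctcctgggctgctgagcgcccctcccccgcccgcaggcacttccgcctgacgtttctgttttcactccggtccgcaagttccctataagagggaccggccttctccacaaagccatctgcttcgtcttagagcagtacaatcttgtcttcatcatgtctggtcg
The 10 H4 genes below the filter summed to 4.60, 7.67 and 2.34 CPM in the SS libraries, against 0.921, 1.45 and 0.980 CPM in the AS libraries. Here the groups did not overlap, and the ratio of the means was 4.36, or 3.11 without SS replicate 2. Hist1h4b, named after its values were seen, had 9, 38 and 2 counts in the SS libraries, against 2, 0 and 0 in the AS libraries. It was the single clustered histone gene called in any fit, when SS replicate 3 was dropped together with AS replicate 1 (edgeR adjusted p = 0.0453), where 2.72% of all genes were called higher. In that fit both remaining AS libraries were at 0 counts and the gene passed the filter through the SS libraries alone, so its fitted fold depends on the prior count and is not given.

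**Figure D3:**
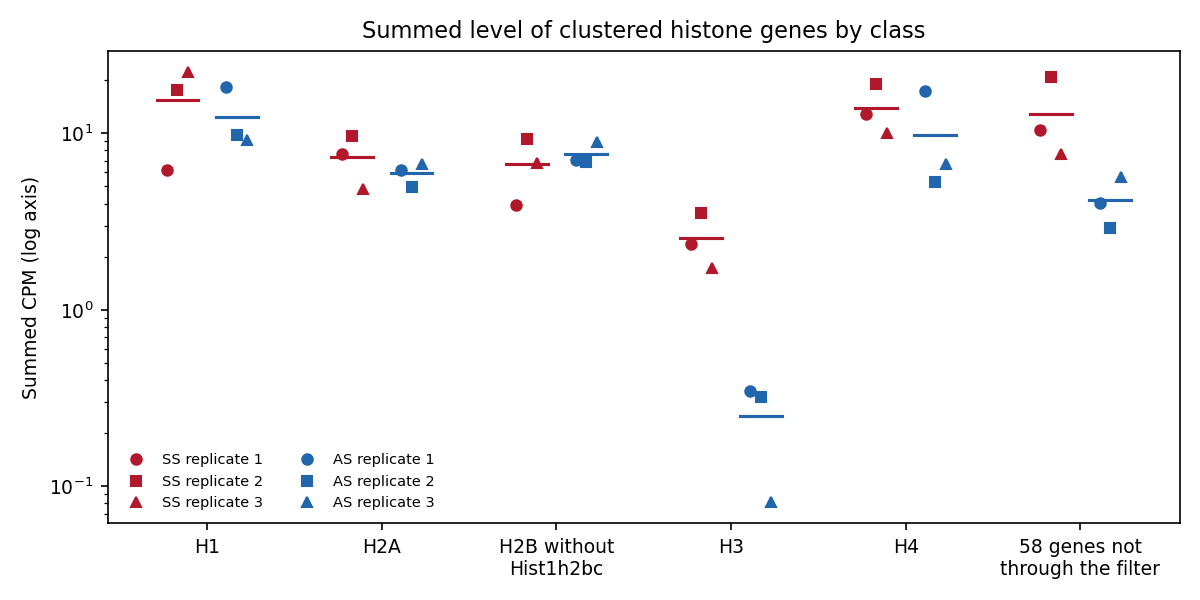
Summed CPM (log axis) of the clustered histone genes of each class in SS libraries (red, left of each pair) and AS libraries (blue, right), with Hist1h2bc left out of H2B; marker shapes give the replicate number and bars the means of 3 libraries. The H3 sums are separate, at 1.72 to 3.55 CPM in SS and 0.0817 to 0.345 CPM in AS, as are the sums of the 58 genes that did not pass the filter, while H1, H2A, H2B and H4 overlap.

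Genes that failed the filter mostly had more reads for their library size in SS, in a share near that of all such genes in the tables. Mean CPM was higher in SS for 32 of the 41 detected clustered histone genes under the filter (78%) and lower for 9. Of those 9, 6 were of class H2B, the pseudogene Hist3h2bb-ps among them. Over all 6074 detected genes under the filter, 76.9% were higher in SS. The sum over all 58 genes under the filter, of which 41 were detected, was 10.4, 20.8 and 7.65 CPM in the SS libraries, against 4.03, 2.90 and 5.64 CPM in the AS libraries, with a ratio of the means of 3.09, or 2.15 without SS replicate 2. Hist1h2bf, the H2B gene with most reads among those 9, had 3, 13 and 2 counts in the SS libraries, against 8, 3 and 18 in the AS libraries. The H4 genes Hist1h4n and Hist1h4j tied at 35 reads. Hist1h4n had 4, 26 and 3 counts in the SS libraries, against 0, 0 and 2 in the AS libraries, and Hist1h4j had 2, 12 and 8 in the SS libraries, against 3, 2 and 8 in the AS libraries. Reads could also be confined to 1 library, as for the H2A gene Hist1h2af, with 11 counts in SS replicate 1 and 0 in the other 5. These 4 genes were named after their values were seen. SS libraries had reads from 28, 40 and 34 of the 68 genes, against 22, 20 and 27 in AS libraries. At a common depth of 6670011 gene reads, the numbers expected were 27.8, 37.5 and 31.1 in the SS libraries, against 20, 20 and 22.9 in the AS libraries. Within each genotype, the number detected was larger in the deeper libraries. In all, 15 genes (36.6% of the 41) had reads in SS libraries alone, with 1 to 34 counts each and 8 of them in 1 library, and 1 gene (2.44%) in an AS library alone. Over all detected genes under the filter the shares were 37% and 8.91%. When every gene with a read was fitted, 51 clustered histone genes were tested and 0 were called, 5 had an unadjusted p under 0.05 with SS higher (8.18% of all genes in that fit) and 1 with SS lower (2.74%). Of those 5, all but Hist1h4b were at 0 in every AS library.

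Over all 68 genes, the summed level was 170, 219 and 119 CPM in the SS libraries, against 300, 201 and 199 CPM in the AS libraries, and it mostly followed Hist1h2bc. Without that gene the sums were 33.0, 59.2 and 45.5 CPM in the SS libraries, against 49.3, 27.4 and 31.5 CPM in the AS libraries. Both sums overlapped between groups, and their ratios of means, 0.727 and 1.27, lay on opposite sides of 1.

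Genes with annotated ends beyond the stem-loop, or with none, were most of the 68 and held nearly all reads. The 6 genes whose model ends at the stem-loop had 27 of the 12138 clustered histone reads and none was tested. The 40 that extend past it had 2304 reads, and the 22 without one had 9807, of which Hist1h2bc had 9503. The median gene had 0.0832 CPM per kb where the model ends at the stem-loop, 0.141 where it extends past and 0.131 without one. The limit of 25 bases was a choice. Hist1h4h and Hist2h2ac, counted as extending past the stem-loop, end 46 and 57 bases after it. A poly(A) signal (AATAAA, with its variant ATTAAA, on the transcript strand) stood in the last 45 bases of the longest coding model in 6 of the 10 tested genes and in 10 of the 58 others. Hist1h2bc, with most of the reads, had none in that window. Over all 21877 protein-coding symbols the share was 71.4%, and over the 68 genes 23.5%. Longer models collect more reads, so levels are compared per kb. Hist1h2bc had 107 CPM per kb in SS and 170 in AS liver, Hist1h1c 8.84 in SS and 7.75 in AS, Hist1h4h 6.76 in SS and 10.5 in AS, and Hist1h4i 6.45 in SS and 3.77 in AS liver. Hist1h2bc was far above the next gene in both genotypes, whereas Hist1h1c, Hist1h4h and Hist1h4i could not be ordered beyond the spread of their libraries. Hist3h2a, Hist2h2be and Hist1h2be were lowest of the tested genes, at 1.67, 0.733 and 0.255 CPM per kb in SS, against 0.989, 0.693 and 0.291 in AS liver.

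Mitosis genes, which mark dividing cells, rose in SS liver. Of 20 mitosis genes tested, 12 rose, 0 fell and 8 did not pass the test (median log2 change 3.65). Over all tested genes, 0.911% were called higher in SS. Some called mitosis genes passed the filter through the SS libraries alone, such as Ttk with 1 count in each AS library. The fitted folds of such genes, and with them the median, depend in part on the prior count. Their summed level was 150, 217 and 252 CPM in the SS libraries, against 30.8, 20 and 25.5 CPM in the AS libraries. Top2a, a topoisomerase that untangles copied DNA, had 7.62, 10.4 and 23.7 CPM in the SS libraries, against 1.27, 0.966 and 0.817 CPM in the AS libraries, and its log2 change was 3.78 (SE 0.534, adjusted p = 0.0110 by edgeR). That call ended without AS replicate 1, 2 or 3, at edgeR adjusted p = 0.0723, 0.0696 and 0.0562. Cdc20, which turns on the anaphase-promoting complex, and Mki67, a proliferation marker, were the other called genes of lowest p, at log2 changes of 3.78 and 3.94, and the call of Mki67 ended without SS replicate 2 or AS replicate 2. Without SS replicates 1, 2 and 3 in turn, 7, 2 and 7 mitosis genes were called, and without AS replicates 1, 2 and 3, 2, 3 and 5. With AS replicates 2 and 3 summed, 3 were called, and by DESeq2 19 were. Over all genes, the fit with AS replicates 2 and 3 summed called 31 of 13150, and DESeq2 called 453 of 12622. The fits without SS replicates 1, 2 and 3 called 92, 26 and 99 genes. Those without AS replicates 1, 2 and 3 called 22, 26 and 38, and all fits with 1 library left out tested 12898 to 13181 genes.

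DNA replication genes, which act in the same phase as the clustered histones, were mostly higher in SS without passing the test. Of 35 tested, 0 were called, where 0.967% of all 12622 tested genes were. Fitted values were higher in SS for 32 of the 35, where they were for 7100 of all 12622, and the median log2 change of the 35 was 0.76. By DESeq2 7 were called, and with library totals alone 1, where these fits called 453 and 168 of all 12622 genes. Mcm2, a subunit of the replicative helicase that also binds histone H3 and H4, had the lowest p. It had 4.60, 11.4 and 9.45 CPM in the SS libraries, against 2.65, 1.13 and 1.80 CPM in the AS libraries, with no overlap (log2 change 2.18, SE 0.501, adjusted p = 0.0831 by edgeR and 0.00499 by DESeq2). Neither the clustered histone genes nor the replication genes were tested against the mitosis genes, and genotype, dividing cells and the cell types that carry them cannot be told apart in these libraries.

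**Figure D4:**
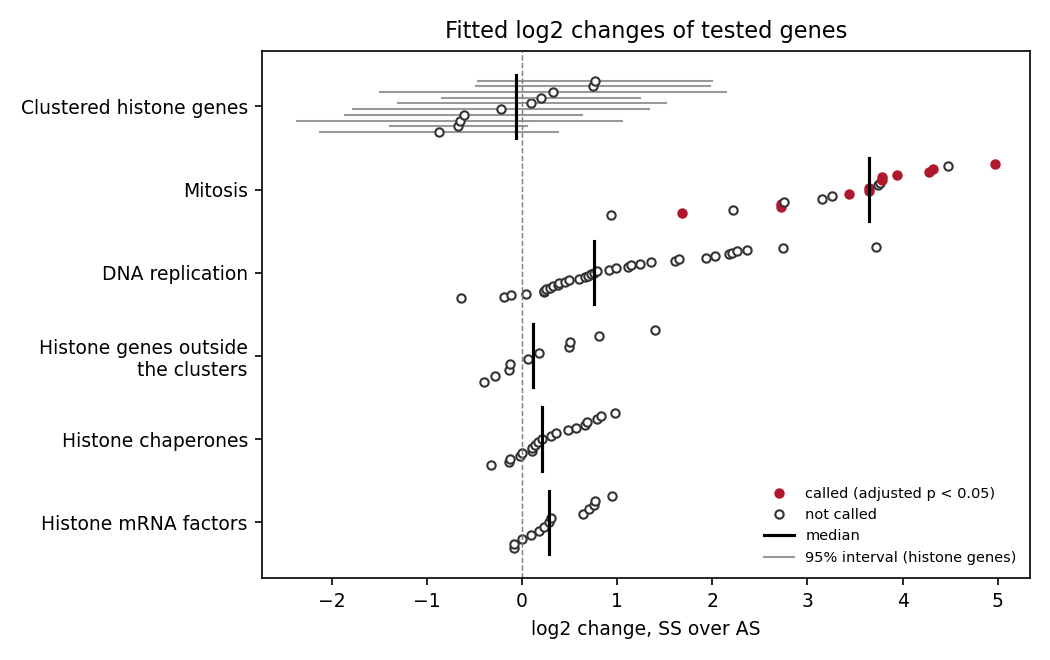
Fitted log2 change (SS over AS) of each tested gene, in rows by list, with filled points called at an adjusted p under 0.05, black bars at list medians and grey lines for the 95% intervals of the clustered histone genes. Mitosis genes have a median of 3.65 with 12 called, while the 10 clustered histone genes straddle 0 with none called.

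Among the listed and tested factors that make, process or handle histone mRNA and protein, none was called. Over all 12622 tested genes, 0.967% were called, so lists this short can hold 0 calls at that share. Fitted values were higher in SS for 7100 of all 12622 genes. Of 13 tested factors of histone mRNA transcription, processing and decay, 0 were called (median log2 change 0.28, 11 higher). Slbp, which binds the stem-loop, had 13.0, 18.0 and 22.2 CPM in the SS libraries, against 13.5, 9.17 and 10.1 CPM in the AS libraries. SS replicate 1 lay below AS replicate 1, so the groups overlapped (log2 change 0.70, SE 0.314, edgeR adjusted p = 0.389, unadjusted p = 0.0479). Of 19 tested histone chaperones, which escort histones to DNA, 0 were called (median 0.21, 14 higher). Nap1l1, a chaperone of H2A and H2B, had the lowest p among them, with 60.8, 80.6 and 85.6 CPM in the SS libraries, against 54.4, 42.0 and 47.1 CPM in the AS libraries and no overlap (log2 change 0.66, SE 0.241, edgeR adjusted p = 0.288). Chaf1b, a subunit of chromatin assembly factor 1, also did not overlap (log2 change 0.98, SE 0.441, edgeR adjusted p = 0.392). Asf1b, a chaperone of H3 and H4, failed the filter, with 3, 26 and 61 counts in the SS libraries, against 0, 1 and 2 in the AS libraries and no overlap. Chaf1b and Asf1b were named after their values were seen.

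Histone genes outside the clusters, most of which give polyadenylated mRNA in resting cells too, gave no call in 10 tested (median log2 change 0.12, 6 higher). Over all 12622 tested genes, 0.967% were called and 7100 were higher. The 13 genes outside the clusters summed to 893, 1030 and 816 CPM in the SS libraries, against 1070, 859 and 874 CPM in the AS libraries, and the groups overlapped. Cenpa, the H3 variant of centromeres, had 14.6, 12.3 and 10.9 CPM in the SS libraries, against 6.56, 3.54 and 4.17 CPM in the AS libraries, with no overlap (log2 change 1.40, SE 0.359, adjusted p = 0.120 by edgeR and 0.0309 by DESeq2).

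Several cell type markers moved with genotype as well. Over all 12622 tested genes, 0.911% were called higher in SS and 0.0555% lower, and 7100 had higher fitted values in SS. The summed level of 10 erythroid markers was 233, 432 and 452 CPM in the SS libraries, against 35.7, 41.7 and 44.8 CPM in the AS libraries, and 5 of 9 tested rose. The erythroid transcription factors Gata1 and Klf1 differed in direction and neither was called: Gata1 was at 0 in every AS library, whereas Klf1 had 2.23, 4.42 and 3.83 CPM in the SS libraries, against 3.11, 8.05 and 8.09 CPM in the AS libraries. The summed level of 9 neutrophil granule markers was 55.7, 115 and 27.2 CPM in the SS libraries, against 8.86, 5.15 and 3.59 CPM in the AS libraries, with 2 of 7 tested called higher and Elane, Ctsg and Ltf at 0 in AS. The 10 B and T cell markers summed to 16.2, 36.8 and 18.0 CPM in SS, against 12.5, 13.0 and 10.5 CPM in AS libraries, with 0 of 7 called. The 9 Kupffer cell and macrophage markers summed to 739, 1870 and 1250 CPM in the SS libraries, against 747, 628 and 579 CPM in the AS libraries, which overlapped, and 3 of 9 (Gpnmb, Trem2 and Ccr2) rose. SS replicate 2, with the highest lymphoid, neutrophil and macrophage sums, also had the highest H3 and H4 sums, and it held the most gene reads. SS replicate 3, with the highest mitosis and erythroid sums, had the lowest H3 and H4 sums among SS libraries. Neither pattern was tested. Hepatocyte markers had 0 of 9 called, and all 9 had lower fitted values in SS.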

How the data were processed

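The submitters' processing notes name HISAT2, HTSeq and the build mm10. Versions, annotation, strand setting and read filters are not given in the sources used here. The authors deposited raw counts per gene symbol for 6 libraries (3 SS, 3 AS), 6670011 to 13700194 gene reads each. The 5 counter lines that name no gene (40.7% to 53.9% of records had no feature) were kept out of all totals and tests. Per the counter lines, reads with several alignments were not counted, which can lower the counts of near-identical histone genes. How far it did so was not tested. Without strand, overlapping or antisense genes cannot be told apart.

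The 68 genes and all lists were chosen with earlier results of these data known. Genes were filtered with filterByExpr (minimum count 10, minimum total 15), which left 12622 of 24421 genes holding 99.8% of gene reads, and SS over AS was tested with edgeR 4.0.16 (R 4.3.3) with TMM scaling and a robust two-sided quasi-likelihood F-test, adjusted by Benjamini-Hochberg over all genes tested. The script was tested on simulated data. CPM use gene totals times TMM factors, and CPM per kb divides by GENCODE M21 exon length (mm10). Named genes were every called or tested histone gene, the germ-line members, and the called genes of lowest p, up to 3, of each pathway list (otherwise the gene of lowest p). All 68 symbols matched GENCODE, and 61 matched a RefSeq upstream window. Alternatives were other scalings and filters, a replicate block, DESeq2 1.42.0 and left-out or summed libraries. Wilson intervals and the floor of 3 counts cover counting error alone.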

Additional observations from a re-analysis of the deposited data

How the results depend on the processing

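Across 14 alternatives, the 10 tested histone genes gave 140 values, of which 128 kept their direction and stayed uncalled, and the lowest adjusted p was 0.225. Calls among clustered histone genes stayed at 0, except for 1 (Hist1h4b) after dropping SS replicate 3 together with AS replicate 1. Genes called over all tested were 122, against 217 with no filter, 453 by DESeq2, 460 with a replicate block, 31 with AS replicates 2 and 3 summed, 662 with SS replicate 3 dropped together with AS replicate 1, and 22 to 99 with 1 library left out. Direction changed in 5 genes, all of them uncalled, and the cause was not tested. Without SS replicate 3, the log2 change was -0.26 in Hist1h1c, 0.033 in Hist1h2be, -0.56 in Hist1h4k and -0.31 in Hist2h2be. Without AS replicate 3 it was -0.013 in Hist1h1c and 0.29 in Hist1h2be, and without AS replicate 1 it was 0.79 in Hist1h4h and -0.15 in Hist2h2be. With SS replicate 3 dropped together with AS replicate 1 it was 1.16 in Hist1h4h, -0.73 in Hist1h4k and -0.54 in Hist2h2be. With 1 library left out at a time, the range was -0.26 to 0.62 in Hist1h1c, -0.51 to 0.29 in Hist1h2be, -1.1 to 0.79 in Hist1h4h, -0.56 to 0.75 in Hist1h4k and -0.31 to 0.41 in Hist2h2be. In the 5 genes that kept their direction it was -0.92 to -0.41 in Hist1h2bc, -0.78 to -0.39 in Hist1h2bg, 0.39 to 1.29 in Hist1h4i, -1.18 to -0.57 in Hist2h2ac and 0.24 to 0.97 in Hist3h2a. Library totals alone gave 0.011 in Hist1h2be and gave a median of 0.36 over all genes, against 0.08. Replicate numbers did not pair the libraries (correlations of deviations 0.0497, -0.12 and 0.193, and 3 of 6 libraries closest to their own number), and the block called 460 genes and 0 clustered histone genes. Low counts limit the genes below the filter, and 3 libraries per genotype limit all tests.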
